A study of Mus musculus with 12 samples.

Results

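Genes of cholesterol and fatty acid synthesis were followed in whole mouse embryos of normal and diabetic pregnancies at embryonic day 10.5. The genes were 31 known members of these pathways, chosen by name with earlier results of these data known. They comprised 8 of the mevalonate steps, 11 of the sterol steps, 5 of sterol regulation and uptake and 7 of fatty acid synthesis. Shares of all genes set beside their counts below are therefore a description and not a test. Of the 31 genes, 19 had a probe that the platform annotation names. A gene counted as measured when 4 or more of the 12 arrays gave its probe a detection p (the chance of such a signal from negative control probes) below 0.05, which held for 16 of the 19 genes and for 7341 genes in all, each read from its brightest probe. The measured genes were Mvk, Mvd, Idi1 and Fdps of the mevalonate steps, Lss, Cyp51, Nsdhl, Hsd17b7, Ebp and Dhcr7 of the sterol steps, the regulator Insig1, and Acly, Fasn, Elovl6, Fads1 and Fads2 of fatty acid synthesis. Ggps1 and Acaca had named probes detected on 0 arrays, and the probe of Scap was detected on 2 arrays. Acat2, Hmgcs1, Pmvk, Fdft1, Sqle, Tm7sf2, Msmo1, Sc5d, Srebf2, Srebf1, Stard4 and Scd2 had no named probe and are not analysed here.

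The 12 arrays were Illumina mouse expression BeadChips, each hybridised with labelled total RNA of 1 sample of NOD embryos, an inbred strain whose females develop autoimmune diabetes. Of the samples, 4 were single embryos with a neural tube defect from diabetic pregnancies (NTD embryos), 4 were pools of RNA of 4 embryos from diabetic pregnancies (diabetic pools), and 4 were pools of RNA of 4 embryos from normal pregnancies (control pools). Each pool combined embryos of separate pregnancies, the dams were fed a chow diet, and dams counted as diabetic above 250 mg/dL blood glucose. The labels name an injection of 5 units of gonadotropin to induce estrus for the diabetic dams and are silent on control dams, so diabetes and the injection cannot be told apart. Single embryos and pools differ in the defect and in pooling at once, and these cannot be told apart. Whether any embryo in a diabetic pool had a defect is not stated in the labels. In RNA of whole embryos, fewer cells of a type and less RNA per cell cannot be told apart.

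Cholesterol is built from acetyl-CoA through mevalonate, isoprenoid units and squalene, and the enzymes of the last steps turn lanosterol into cholesterol. The transcription factor SREBP2, held in the endoplasmic reticulum by INSIG proteins when sterols are plentiful, switches on most genes of this pathway together, and SREBP1 does the same for fatty acid synthesis. In the embryo cholesterol is also attached to Hedgehog proteins, which pattern the neural tube, and loss of the last enzyme, DHCR7, causes Smith-Lemli-Opitz syndrome in humans.

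On promoters of this pathway SREBP acts with NF-Y, which binds the CCAAT box, so the 300 bases around the transcript start (250 before it and 50 after it, in RefSeq's sequence of build GRCm38.p6) were searched for CCAAT on both strands. Windows of 4 measured genes that hold the box are shown as examples, and other measured genes held it as well. Capitals mark CCAAT, or ATTGG where the box lies on the opposite strand.
Mvd: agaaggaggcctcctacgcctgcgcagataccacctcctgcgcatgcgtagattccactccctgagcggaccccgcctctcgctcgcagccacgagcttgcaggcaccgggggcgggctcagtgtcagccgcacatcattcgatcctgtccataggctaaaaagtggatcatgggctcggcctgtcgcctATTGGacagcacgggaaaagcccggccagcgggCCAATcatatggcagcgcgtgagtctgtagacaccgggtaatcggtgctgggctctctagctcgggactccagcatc
Idi1: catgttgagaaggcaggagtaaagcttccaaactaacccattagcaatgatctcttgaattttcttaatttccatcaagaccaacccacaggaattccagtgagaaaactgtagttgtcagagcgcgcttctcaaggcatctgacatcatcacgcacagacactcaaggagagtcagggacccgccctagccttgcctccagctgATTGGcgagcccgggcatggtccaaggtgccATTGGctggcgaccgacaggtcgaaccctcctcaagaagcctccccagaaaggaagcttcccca
Hsd17b7: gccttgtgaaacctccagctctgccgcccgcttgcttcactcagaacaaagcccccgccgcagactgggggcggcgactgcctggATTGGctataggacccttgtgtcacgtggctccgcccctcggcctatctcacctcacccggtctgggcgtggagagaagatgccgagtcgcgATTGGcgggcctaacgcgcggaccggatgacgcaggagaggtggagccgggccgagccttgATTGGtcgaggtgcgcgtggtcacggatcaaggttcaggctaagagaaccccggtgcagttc
Dhcr7: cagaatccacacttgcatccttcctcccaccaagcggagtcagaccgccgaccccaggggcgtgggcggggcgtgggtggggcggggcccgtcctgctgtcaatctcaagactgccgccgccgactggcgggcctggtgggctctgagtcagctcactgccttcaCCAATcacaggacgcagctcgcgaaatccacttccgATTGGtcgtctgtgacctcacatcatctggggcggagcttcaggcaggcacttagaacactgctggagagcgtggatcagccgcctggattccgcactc
The Mvd window lies at chr8:122443373-122443672 on the minus strand, with boxes that begin 60 and 27 bases before the start. The Idi1 window lies at chr13:8885356-8885655 on the plus strand, with boxes 45 and 14 bases before the start. The Hsd17b7 window lies at chr1:169969156-169969455 on the minus strand, with boxes 165, 73 and 12 bases before the start. The Dhcr7 window, 1 of 3 that the table gives for this gene, lies at chr7:143829964-143830263 on the plus strand, with boxes 85 and 49 bases before the start, and the other 2 Dhcr7 windows hold no CCAAT.

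Of the 16 measured genes, 14 had a promoter window in the table, and 12 of these held a CCAAT box, against 41.1% of 27025 genes. The box was present for 9 of 9 measured mevalonate and sterol genes with a window (Mvk, Mvd, Idi1, Lss, Cyp51, Nsdhl, Hsd17b7, Ebp and Dhcr7) and for 2 of 4 fatty acid genes (Acly and Fasn). Counted by window, it was in 9 of the 11 windows of these mevalonate and sterol genes, against 37.4% of 32851 windows. The GC box GGGCGG, also searched on both strands, was present for 12 of 14, against 38.2% of genes. The E-box CACGTG, a palindrome, was present for Dhcr7, Hsd17b7 and Insig1, against 8.09% of genes. For Dhcr7 it lies in a window that is not shown. The classical sterol regulatory element TCACNCCAC, searched on both strands, was found for 0 of the 14 genes and for the unmeasured Hmgcs1, against 1.44% of genes. A match describes these letters in the window and is not evidence that a factor binds there.

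Values are log2 intensities after background correction and quantile normalization, and differences are differences of their group means. Detection was similar on the 12 arrays, with 12546 to 13736 of 32766 probes detected. The Y-linked gene Kdm5d, a marker of male tissue, lay between 4.42 and 4.60 in NTD embryos 3 and 4 and in control pools 3 and 4. It lay between 7.23 and 9.18 in the other 8 samples. Results against controls were therefore also computed without control pools 3 and 4. For NTD embryos this does not balance Kdm5d, because NTD embryos 3 and 4 stay in the comparison. For each comparison limma was fitted over all 7341 genes with Benjamini-Hochberg adjustment, and a gene was called at an adjusted p under 0.05. The labels do not say whether 1 litter gave embryos to several samples, so p-values measure only the spread between these samples.

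NTD embryos were compared with control pools to ask how embryos with a defect differed from embryos of normal pregnancies. The log2 difference lay above 0 for 10 of the 10 mevalonate and sterol genes, against 52.1% of all genes. Its median was 0.18, with the largest values for Idi1 and Dhcr7. Some signs changed under alternatives: Ebp was at -0.061 with median scaling, Fdps at -0.041 averaged over its probes and Mvk at -0.040 without NTD embryo 4. The log2 difference lay above 0 for 2 of the 5 fatty acid genes, with a median of -0.0053 and the largest value for Elovl6. These sets carry no test of their own, and their genes were chosen with earlier results of these data known. No measured pathway gene passed the test: limma called 0 of 16, against 0.0272% of all genes called higher and 0.0681% called lower. At an unadjusted p under 0.05, 5 of 16 were higher (Idi1, Dhcr7, Mvd, Elovl6 and Fdps), against 5.50% of all genes, and 0 of 16 were lower, against 4.74%. The count of 5 became 1 with median scaling in place of quantile normalization and 1 without control pools 3 and 4. The share of all genes at that threshold is not given for these alternatives, so the falls are not read as particular to the pathway genes. The log2 difference lay above 0 for 13 of 16 genes, against 52.1% of all genes (11 of 16, against 20.1%, with median scaling). Its median was 0.18, against 0.0062 over all genes. All 4 NTD embryos lay above all 4 control pools for 5 of 16 genes (Idi1, Fdps, Cyp51, Dhcr7 and Elovl6), against 3.51% of all genes.

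Diabetic pools were compared with control pools to ask how embryos differed when the mother was diabetic, with both groups pooled. The log2 difference lay above 0 for 8 of the 10 mevalonate and sterol genes, with a median of 0.21 and the largest values for Mvd, Dhcr7, Lss and Hsd17b7, and below 0 for Mvk and Ebp. It lay above 0 for 5 of the 5 fatty acid genes, with a median of 0.079, and the difference between the 2 sets was not tested. In this comparison limma called 2.06% of all genes (0.845% higher and 1.21% lower) and 0 of the 16 pathway genes. At an unadjusted p under 0.05, 4 of 16 were higher (Mvd, Hsd17b7, Lss and Dhcr7), against 7.57% of all genes, and 0 were lower, against 6.87%. The count of 4 became 1 with median scaling and 2 without control pools 3 and 4, again without a share of all genes to set beside it. The log2 difference lay above 0 for 14 of 16 genes, against 53.5% of all genes (12 of 16, against 30.98%, with median scaling). Its median was 0.13, against 0.011 over all genes. All 4 diabetic pools lay above all 4 control pools for 3 of 16 genes (Mvd, Cyp51 and Hsd17b7), against 4.84% of all genes. Both comparisons use the same 4 control pools, so their values are given side by side and are not independent of each other.

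**Figure D1:**
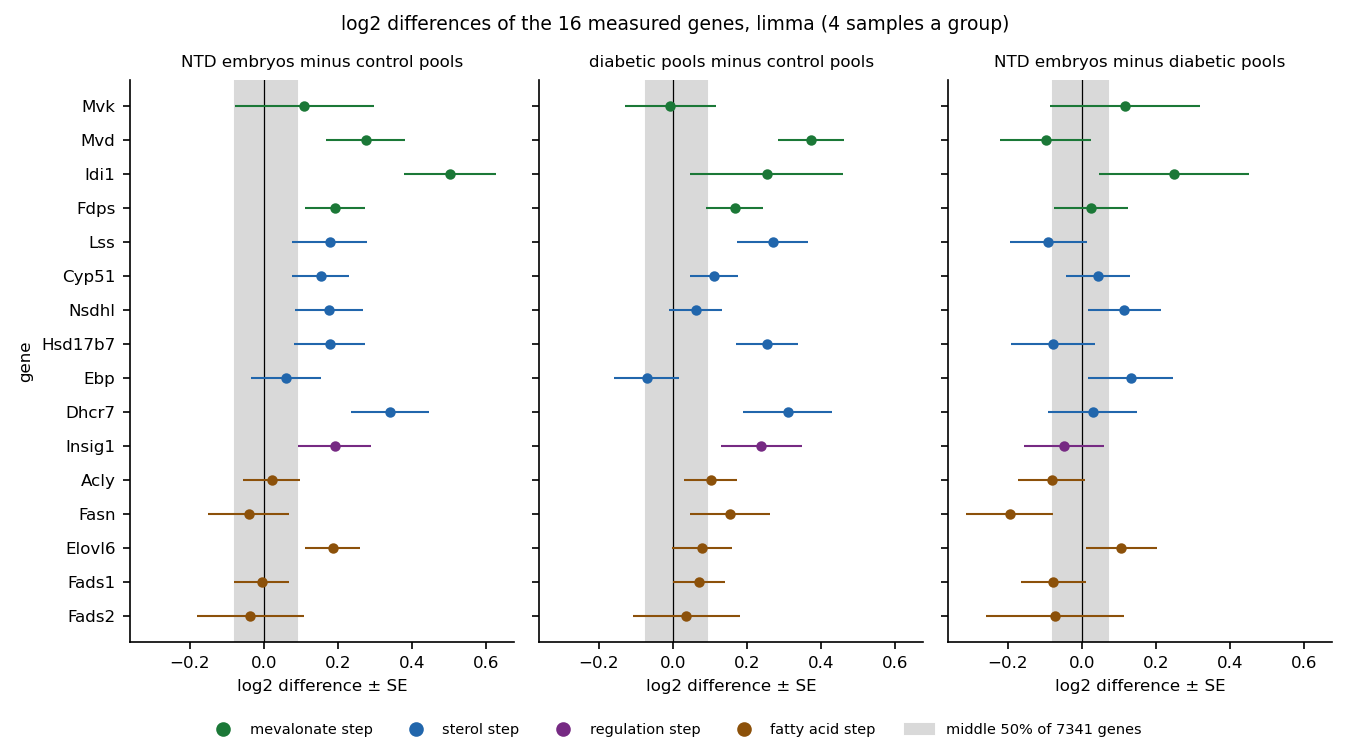
log2 difference ± SE from limma for the 16 measured genes (rows, coloured by step) in 3 comparisons of 4 samples a group; the grey band holds the middle 50% of 7341 genes. Most cholesterol genes lie right of the band against control pools (Mvd at 0.27 in NTD embryos and 0.37 in diabetic pools), and the fatty acid genes other than Elovl6 lie inside it or near its edge, Fasn farthest out at 0.15 in diabetic pools.

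Quantile normalization sets the scale on which these differences are read. With median scaling in its place, the median of all genes moved to -0.10 between NTD embryos and control pools and to -0.058 between diabetic pools and control pools. The median of the pathway genes relative to all genes was then 0.16 in NTD embryos and 0.14 in diabetic pools, against 0.17 and 0.12 with quantile normalization. The genes called over all genes then split into 1 higher and 18 lower in NTD embryos, in place of 2 and 5, and into 23 higher and 141 lower in diabetic pools, in place of 62 and 89.

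Mvd encodes mevalonate diphosphate decarboxylase, which makes isopentenyl diphosphate. Its log2 intensity was 8.12, 8.47, 8.35 and 8.62 in the NTD embryos, 8.54, 8.61, 8.56 and 8.25 in the diabetic pools, and 8.06, 8.13, 8.03 and 8.24 in the control pools. The 4 diabetic pools lay above the 4 control pools, although diabetic pool 4 at 8.25 was close to control pool 4 at 8.24, and NTD embryo 1 lay within the control range. Relative to control pools, diabetic pools were higher by 0.37 ± 0.089 on the log2 scale (SE, 1.29-fold; limma adjusted p = 0.0613), and NTD embryos by 0.27 ± 0.11 (1.21-fold; adjusted p = 0.409). The gene thus missed the threshold against both. Over the alternatives tried for diabetic pools its limma adjusted p ran between 0.0126 and 0.246, and it was called under 5 of 19 of them. The lowest value came from leaving out diabetic pool 4, the diabetic pool nearest the control pools. With normexp background correction it was called at 0.0364, where limma called 159 of 7341 genes.

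Idi1 encodes the isomerase that interconverts the isoprenoid units. Its values were 8.79, 8.83, 8.58 and 8.94 in the NTD embryos, 8.40, 7.98, 8.62 and 9.15 in the diabetic pools, and 8.13, 8.46, 8.02 and 8.52 in the control pools. Every NTD embryo exceeded every control pool, whereas the diabetic pools spanned both the lowest and the highest value of the 12 samples, with an SD of 0.49, against 0.15 in NTD embryos and 0.24 in control pools. NTD embryos were higher than control pools by 0.50 ± 0.13 (1.42-fold; limma adjusted p = 0.182), the largest difference among the 16 genes in that comparison. Diabetic pools differed from control pools by 0.25 ± 0.21, which limma did not separate from 0 (adjusted p = 0.637). That difference rested on single samples, at 0.049 without diabetic pool 4 and 0.44 without diabetic pool 2.

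Fdps encodes farnesyl diphosphate synthase, whose product feeds sterols and protein prenylation. It had 12.05, 12.26, 11.95 and 12.06 in the NTD embryos, 12.09, 12.17, 12.09 and 11.86 in the diabetic pools, and 11.85, 11.91, 11.87 and 11.92 in the control pools. The NTD embryos all lay above the control pools, and of the diabetic pools number 4 alone lay within the control range. The difference from control pools was 0.19 ± 0.081 in NTD embryos (limma adjusted p = 0.449) and 0.17 ± 0.077 in diabetic pools (adjusted p = 0.352). A further probe named Fdps went the other way, with -0.27 ± 0.23 in NTD embryos and -0.31 ± 0.11 in diabetic pools, and averaging both probes turned the gene's difference to -0.041 and -0.074, so the direction of Fdps rests on the choice of probe.

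Mvk, the mevalonate kinase gene, was detected on 11 of 12 arrays, at raw intensities of 68.4 to 95.3. Its groups overlapped, with values between 5.13 and 6.03 in the NTD embryos, 5.23 and 5.72 in the diabetic pools, and 5.28 and 5.64 in the control pools. The difference from control pools was 0.11 ± 0.19 in NTD embryos and -0.0069 ± 0.12 in diabetic pools.

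**Figure D2:**
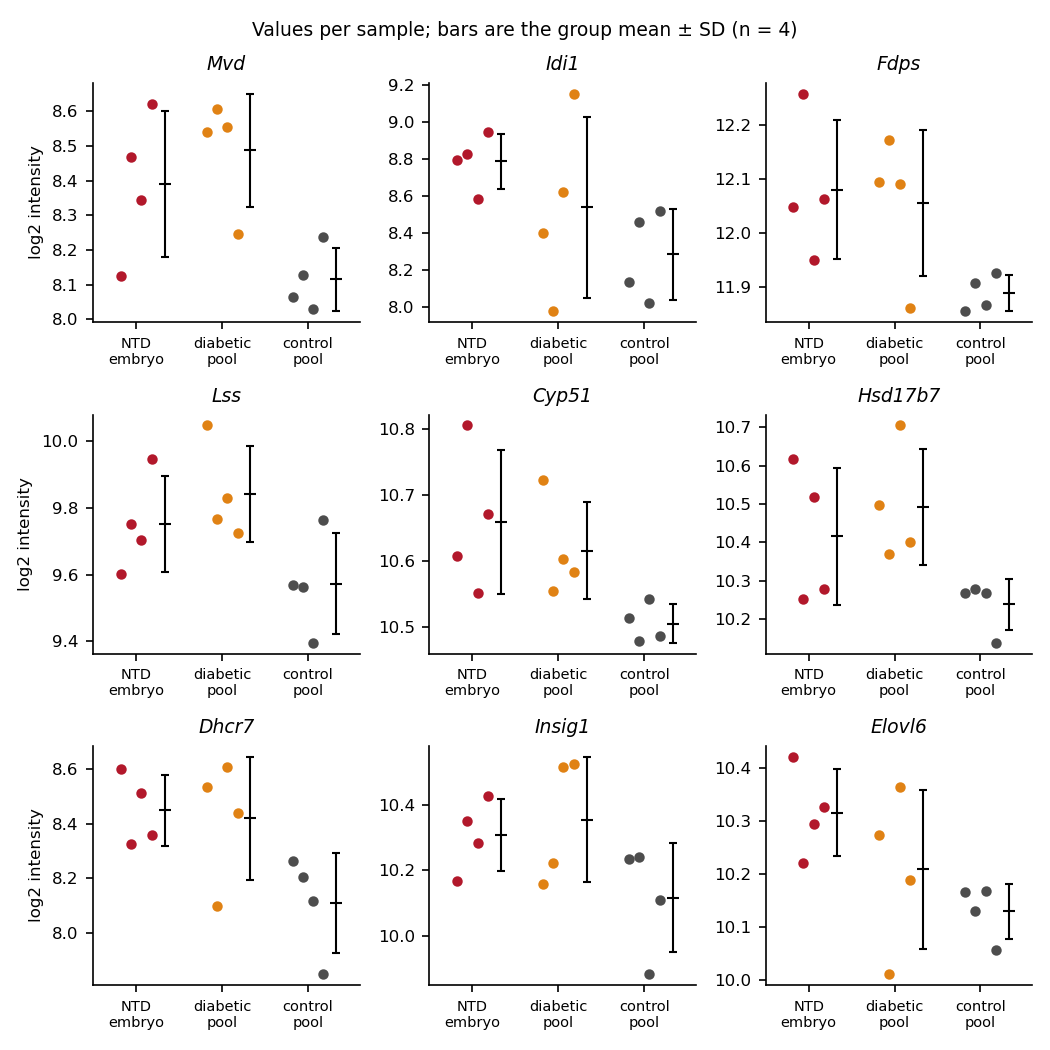
log2 intensity (vertical axis, its own range in each panel) of the 9 genes with an unadjusted p under 0.05 in a comparison or with groups that did not overlap; points are samples and black bars the group mean ± SD (n = 4). Idi1 and Dhcr7 show 4 of 4 NTD embryos above the control pools, and Mvd shows diabetic pool 4 at 8.25 just above control pool 4 at 8.24.

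Among the sterol genes, Lss encodes lanosterol synthase, which closes the sterol rings. Lss had 9.60, 9.75, 9.71 and 9.95 in the NTD embryos, 10.05, 9.77, 9.83 and 9.72 in the diabetic pools, and 9.57, 9.56, 9.40 and 9.76 in the control pools. Control pool 4 reached into the range of both other groups. Diabetic pools were higher than control pools by 0.27 ± 0.095 (limma adjusted p = 0.215), and NTD embryos by 0.18 ± 0.10 (adjusted p = 0.598).

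Cyp51 encodes lanosterol demethylase. It had 10.61, 10.81, 10.55 and 10.67 in the NTD embryos, 10.72, 10.55, 10.60 and 10.58 in the diabetic pools, and 10.51, 10.48, 10.54 and 10.49 in the control pools. All 8 samples of diabetic pregnancies lay above all 4 control pools, which was so for 1 of the 16 genes, against 1.32% of all genes. The differences were small, at 0.15 ± 0.077 in NTD embryos (limma adjusted p = 0.536) and 0.11 ± 0.065 in diabetic pools. NTD embryo 3 and diabetic pool 2, both at 10.55, were close to control pool 3 at 10.54.

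Hsd17b7, which encodes a sterone reductase of the demethylation complex, had 10.62, 10.25, 10.52 and 10.28 in the NTD embryos, 10.50, 10.37, 10.71 and 10.40 in the diabetic pools, and 10.27, 10.28, 10.27 and 10.14 in the control pools. The diabetic pools all lay above the control pools, and NTD embryos 2 and 4 lay within the control range. The difference was 0.25 ± 0.084 in diabetic pools (1.19-fold; limma adjusted p = 0.174) and 0.18 ± 0.096 in NTD embryos. Nsdhl and Ebp, a dehydrogenase of that complex and the sterol isomerase, are both X-linked. Nsdhl differed from control pools by 0.18 ± 0.090 in NTD embryos and 0.062 ± 0.072 in diabetic pools, and Ebp by 0.061 ± 0.094 and -0.071 ± 0.088, and the groups of both genes overlapped.

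Dhcr7, the reductase gene of the last step to cholesterol, had 8.60, 8.33, 8.51 and 8.36 in the NTD embryos, 8.54, 8.10, 8.61 and 8.44 in the diabetic pools, and 8.26, 8.20, 8.12 and 7.85 in the control pools. The NTD embryos all lay above the control pools, as did the diabetic pools other than number 2. NTD embryos were higher than control pools by 0.34 ± 0.11 (1.27-fold; limma adjusted p = 0.284), and diabetic pools by 0.31 ± 0.12 (1.24-fold; adjusted p = 0.251). Without control pools 3 and 4, the difference was 0.21 in NTD embryos and 0.19 in diabetic pools.

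Insig1, itself an SREBP target whose protein holds SREBP back, had 10.17, 10.35, 10.28 and 10.43 in the NTD embryos, 10.16, 10.22, 10.51 and 10.52 in the diabetic pools, and 10.23, 10.24, 9.88 and 10.11 in the control pools. Each group overlapped with the others. The difference from control pools was 0.19 ± 0.099 in NTD embryos and 0.24 ± 0.11 in diabetic pools (limma adjusted p = 0.347).

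**Figure D3:**
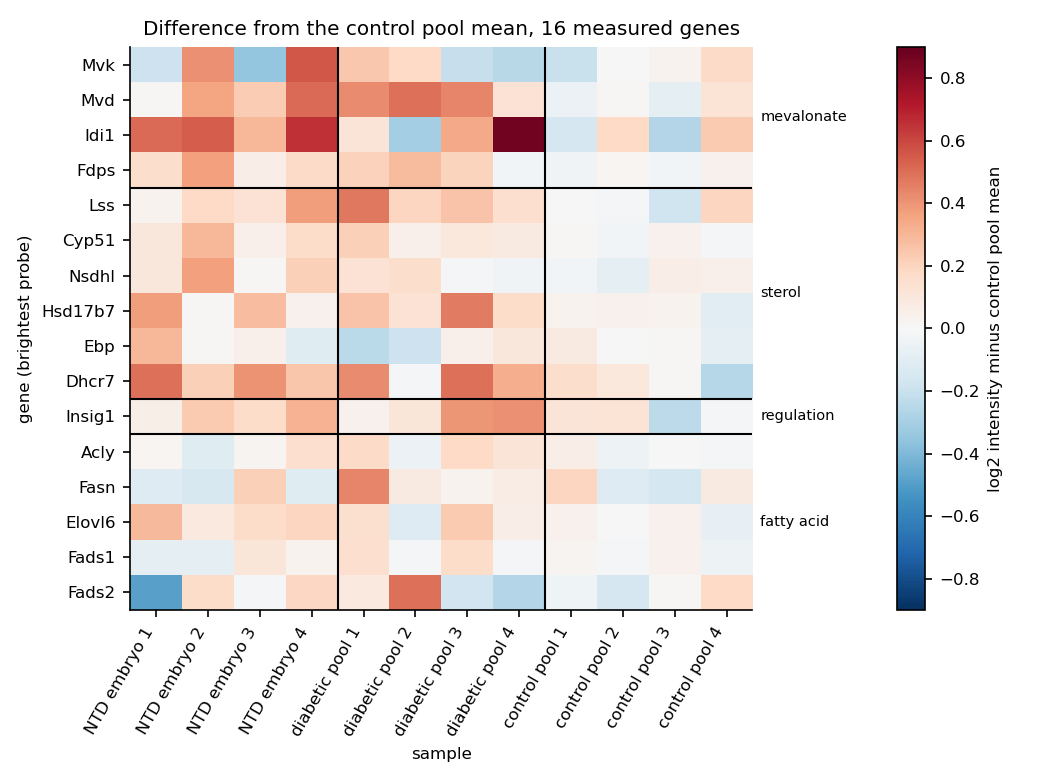
log2 intensity minus the control pool mean (colour) for 16 genes (rows, by step) in 12 samples (columns, NTD embryos, diabetic pools, control pools). Red cells gather in the mevalonate and sterol rows of the 8 samples of diabetic pregnancies, with Idi1 of diabetic pool 4 the darkest, and the fatty acid rows are mixed.

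Of the 5 fatty acid genes, the elongase gene Elovl6 was the one that stood apart in NTD embryos. It had 10.42, 10.22, 10.30 and 10.33 in the NTD embryos, 10.27, 10.01, 10.36 and 10.19 in the diabetic pools, and 10.17, 10.13, 10.17 and 10.06 in the control pools. The NTD embryos all exceeded the control pools, and diabetic pool 2 was the lowest of the 12 samples. The difference from control pools was 0.19 ± 0.074 in NTD embryos (limma adjusted p = 0.422) and 0.079 ± 0.082 in diabetic pools.

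Fasn encodes fatty acid synthase, and its probe was dim, at raw intensities of 74.4 to 105. It had 5.57, 5.54, 5.90 and 5.57 in the NTD embryos, 6.12, 5.77, 5.71 and 5.76 in the diabetic pools, and 5.88, 5.57, 5.53 and 5.76 in the control pools, so the groups overlapped. Acly, which makes cytosolic acetyl-CoA from citrate for both pathways, differed from control pools by 0.022 ± 0.077 in NTD embryos and 0.10 ± 0.072 in diabetic pools. The desaturase genes Fads1 and Fads2 were close to control pools, with -0.0053 ± 0.074 and -0.036 ± 0.14 in NTD embryos and 0.072 ± 0.070 and 0.037 ± 0.14 in diabetic pools. The median difference from control pools over the 5 fatty acid genes was -0.0053 in NTD embryos and 0.079 in diabetic pools. It was 0.18 and 0.21 over the 10 mevalonate and sterol genes, and 0.094 and 0.034 over 14 further fatty acid genes described below.

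Each sample was also summarised by the mean over genes of the difference from the control pool mean. Over the 10 mevalonate and sterol genes this was 0.19, 0.28, 0.12 and 0.28 in the NTD embryos, 0.23, 0.099, 0.21 and 0.15 in the diabetic pools, and -0.019, 0.021, -0.036 and 0.034 in the control pools. Each of the 8 samples of diabetic pregnancies exceeded each control pool, and NTD embryos overlapped with diabetic pools. Over the 5 fatty acid genes it was -0.074, -0.015, 0.10 and 0.090 in the NTD embryos, 0.20, 0.078, 0.088 and -0.0078 in the diabetic pools, and 0.055, -0.064, -0.015 and 0.024 in the control pools, with all 3 groups overlapping. These means carry no test, because the genes were chosen with earlier results of these data known. Of the 16 genes, 8, 9, 10 and 12 lay above all control pools in the 4 NTD embryos, and 12, 8, 11 and 9 did in the 4 diabetic pools, against 23.6% to 32.0% of all genes in the same samples.

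**Figure D4:**
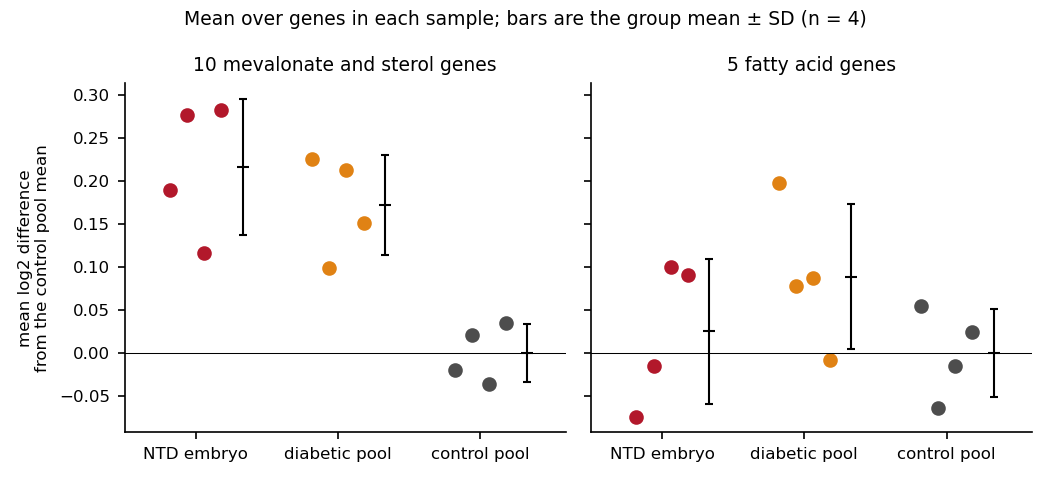
Mean log2 difference from the control pool mean over 10 mevalonate and sterol genes (left) and 5 fatty acid genes (right) in each sample (points), with the group mean ± SD (black bars, n = 4). On the left the samples of diabetic pregnancies lie between 0.099 and 0.28, above the control pools at -0.036 to 0.034; on the right the groups overlap.

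NTD embryos were set against diabetic pools to ask what differed between embryos with a defect and pooled embryos when all mothers were diabetic. Here limma called 0 of 7341 genes and 0 of 16 pathway genes, and at an unadjusted p under 0.05 it gave 0 of 16, against 1.63% of all genes higher and 1.42% lower. The log2 difference lay above 0 for 8 of 16 genes, against 48.2% of all genes, and its median was -0.011, against -0.0051 over all genes. No gene had all 4 NTD embryos above all 4 diabetic pools (0 of 16, against 1.12% of all genes). The gene with the smallest p was Fasn, at -0.19 ± 0.12 (limma adjusted p = 0.996). The 95% interval of the difference ran from -0.37 to 0.17 for Mvd, from -0.23 to 0.29 for Dhcr7 and from -0.20 to 0.70 for Idi1.

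Taking both groups of diabetic pregnancies against the 4 control pools, in a model of all 12 samples, limma called 0.858% of all genes and 0 of the 16 pathway genes. At an unadjusted p under 0.05, 7 of 16 were higher (Mvd, Dhcr7, Lss, Hsd17b7, Fdps, Insig1 and Idi1), against 6.43% of all genes, and 0 were lower, against 5.60%. The count of 7 became 1 with median scaling and 1 without control pools 3 and 4, also without a share of all genes beside it. Mvd was higher by 0.32 ± 0.094 (adjusted p = 0.148) and Dhcr7 by 0.33 ± 0.10 (adjusted p = 0.189). The difference lay above 0 for 15 of 16 genes, Ebp being the exception, against 53.4% of all genes.

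The median over the 16 genes of the SD within a group was 0.147 in NTD embryos, 0.157 in diabetic pools and 0.080 in control pools, against 0.161, 0.128 and 0.102 over all genes. The SD was higher than among control pools for 12 of the 16 genes among NTD embryos, against 77.3% of all genes, and for 15 of the 16 among diabetic pools (all but Lss), against 65.7%. Diabetic and control samples were both pools, and the NTD embryos were measured singly. The standard error over beads was, at the median, 3.56% of the intensity of these genes.

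Further probes gave a check on 8 genes, through 11 probes that passed the same filter. In NTD embryos, and separately in diabetic pools, 9 of the 11 had the sign of the brightest probe against control pools. No share over all genes stands beside this count. The 3 further Nsdhl probes differed from control pools by 0.17 to 0.35 in NTD embryos and by 0.049 to 0.29 in diabetic pools, and the 2 further Insig1 probes by 0.20 to 0.22 and by 0.17 to 0.21. The further probes of Lss and Hsd17b7 were also higher, by 0.20 and 0.15 in NTD embryos and by 0.17 and 0.16 in diabetic pools. The exceptions were Fdps in both comparisons, Fads2 in NTD embryos and Fads1 in diabetic pools.

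**Figure D5:**
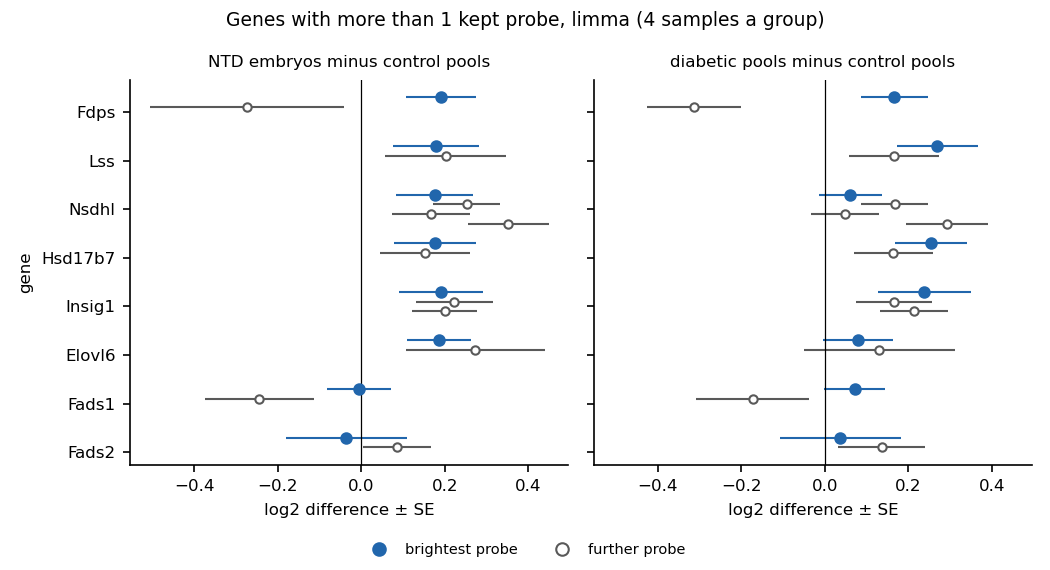
log2 difference ± SE from limma for the brightest probe (filled) and the further kept probes (open) of 8 genes, in NTD embryos and in diabetic pools against control pools (4 samples a group). The probes of Nsdhl, Hsd17b7, Insig1 and Lss all lie right of 0, and the open Fdps probe lies left of it, at -0.27 and -0.31.

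Genes next to the pathway were drawn from 5 further lists, of which 29 genes were measured, and limma called 0 of them in each of the 4 comparisons. Among 14 further fatty acid genes, 3 were higher at an unadjusted p under 0.05 in diabetic pools, against 7.57% of all genes, and 3 in NTD embryos, against 5.50%, and 0 were lower. They were Aacs, Acss2 and Tecr in both. Over the 14 genes the log2 difference lay above 0 for 11 in NTD embryos, against 52.1% of all genes, with a median of 0.094. In diabetic pools it lay above 0 for 7, against 53.5%, with a median of 0.034. Aacs, which activates acetoacetate in the cytosol for lipid synthesis, had 9.74, 9.72, 9.93 and 9.97 in the NTD embryos, 9.94, 9.92, 10.01 and 9.85 in the diabetic pools, and 9.61, 9.78, 9.59 and 9.47 in the control pools. The diabetic pools all lay above the control pools, by 0.31 ± 0.078 at the mean (limma adjusted p = 0.0724), and NTD embryos were higher by 0.23 ± 0.094 (adjusted p = 0.439). Acss2, which makes cytosolic acetyl-CoA from acetate, differed by 0.19 ± 0.071 in NTD embryos and 0.22 ± 0.065 in diabetic pools. Tecr, a reductase of fatty acid elongation, differed by 0.19 ± 0.076 and 0.17 ± 0.071. Of the 14 genes, 3 had all NTD embryos above all control pools (Acss2, Tecr and Mcat), against 3.51% of all genes. All diabetic pools lay above all control pools for 3 (Aacs, Acss2 and Tecr), against 4.84%. Of the fatty acid list, Mlxipl, a transcription factor that answers to glucose, differed by -0.10 ± 0.17 in NTD embryos and 0.20 ± 0.10 in diabetic pools.

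In the other 4 lists, none of the genes reached an unadjusted p under 0.05 against control pools. The 5 measured genes of sterol uptake, transport and efflux (Lrp2, Npc1, Npc2, Lipa and Nr1h3) had a median difference of 0.012 in NTD embryos and -0.00028 in diabetic pools. The 3 SREBP processing genes Insig2, Mbtps1 and Mbtps2 had medians of 0.043 and 0.026, and 6 genes of the isoprenoid branch -0.053 and 0.035. In that branch Pggt1b, a prenyltransferase subunit gene, was lower by 0.17 ± 0.097 in NTD embryos and 0.18 ± 0.098 in diabetic pools (limma adjusted p = 0.607 and 0.441). Cyb5r3, the one measured gene of the further sterol list, differed by -0.016 ± 0.082 and 0.17 ± 0.084.

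Markers of cell types that a whole embryo holds in varying amounts were also read, and their part in these results was not tested. None of them was called by limma in any comparison. The summed level of 5 cardiac muscle markers was 13.34 to 13.88 in NTD embryos, 13.26 to 13.45 in diabetic pools and 13.16 to 13.34 in control pools, on the log2 scale. Their differences from control pools lay above 0 for 5 of 5 in NTD embryos (median 0.37) and in diabetic pools (median 0.14). At an unadjusted p under 0.05, limma gave 4 of the 5 higher in NTD embryos, against 5.50% of all genes, and 0 in diabetic pools. Myh6 was higher in NTD embryos than in control pools by 0.54 ± 0.098 (limma adjusted p = 0.114). The 4 neuron markers summed to 10.80 to 11.27, 10.97 to 11.19 and 11.18 to 11.30 in NTD embryos, diabetic pools and control pools. Differences of neuron markers from control pools lay below 0 for 4 of 4 in NTD embryos (median -0.24) and in diabetic pools (median -0.15). Dcx was lower than in control pools by 0.49 ± 0.19 in NTD embryos and 0.24 ± 0.084 in diabetic pools (limma adjusted p = 0.389 and 0.218). The 6 primitive erythroid markers summed to 16.40 to 16.72, 16.66 to 16.76 and 16.67 to 16.72, a sum carried by the brightest globins. Single erythroid markers differed more: the difference of NTD embryos from control pools lay below 0 for 6 of 6, with a median of -0.26, and was -0.50 for Klf1, -0.49 for Alas2 and -0.32 for Hba-x, of which Klf1 and Hba-x had an unadjusted p under 0.05 (limma adjusted p = 0.439 and 0.417). In diabetic pools it lay below 0 for 5 of 6, with a median of -0.022. The summed level of the 2 neural progenitor markers was 9.83 to 10.25, 9.89 to 10.13 and 10.03 to 10.13 in NTD embryos, diabetic pools and control pools. The 4 hepatoblast and visceral endoderm markers summed to 8.53 to 10.07, 9.03 to 9.62 and 9.15 to 9.71, so these sums overlapped. Their differences from control pools lay below 0 for 4 of 4 in diabetic pools, with a median of -0.039, and for 2 of 4 in NTD embryos. Apob was lower in all 4 diabetic pools than in all 4 control pools, by 0.22 ± 0.071 (limma adjusted p = 0.162). All diabetic pools lay below all control pools for 331 of 7341 genes. In NTD embryos Apob differed by 0.030 ± 0.13. None of 6 placenta and decidua markers was measured.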

How the data were processed

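RNA of 12 samples was hybridised to 12 arrays. Per the file headers, the authors deposited 1 mean intensity per probe and array, not normalized, with a detection p-value, the standard error over beads and the bead number; GenomeStudio is named in the submitters' processing notes. The series' value table was deposited by the authors as linear intensity with the background subtracted, by a normalization not given in the sources used here (column medians of 8.44 to 8.70, lowest value -18.6). It was tried as an alternative after raising values below 1 to 1.

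In limma 3.58.1 (R 4.3.3), neqc corrected the background from the detection p-values (offset 16), quantile-normalized the arrays and returned log2 values. The annotation gave 1 symbol for 23340 of 32766 probes, several for 13 and none for 9413; 13876 probes passed the detection filter. The brightest probe stood for a gene. Each pair of groups was fitted on its own 8 arrays with lmFit and eBayes (two-sided, Benjamini-Hochberg over 7341 genes, no covariates), after a check on simulated data. The genes, lists and named-gene rule (all members, and up to 4 genes of each further list by smallest p) were chosen with earlier results of these data known. Samples were not treated as paired by replicate number. Correlations of deviations between same-numbered samples lay between -0.27 and 0.30, and samples of different number were not correlated for comparison. Background correction, normalization, filter, probe rule, model, weights, replicate block and samples left out were varied. The number of arrays limits the precision.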

Additional observations from a re-analysis of the deposited data

Results flagged for a closer look

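Within a group of 4 samples, a value was singled out when its gap to the nearest other sample exceeded Dixon's critical share (95%) of the group's range. This was so in 3 of 48 groups of the 16 measured genes, where chance gives about 1 in 20 groups, or 2.4 of 48. Hsd17b7 was far below the other control pools in control pool 4, at 10.14, against 10.27, 10.28 and 10.27. Fasn was far above the other NTD embryos in NTD embryo 3, at 5.90, and far above the other diabetic pools in diabetic pool 1, at 6.12.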

How the results depend on the processing

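Across 19 alternatives for diabetic pools against control pools, 19 for NTD embryos against control pools, 18 for NTD embryos against diabetic pools and 23 for both groups of diabetic pregnancies against control pools, the number of pathway genes called by limma was 0 or 1, and the gene was Mvd. In diabetic pools against control pools it was 1 with normexp (adjusted p = 0.0364), without background correction (0.0379), with the stricter detection filter (0.0491) and with array weights (0.0217), and 0 to 1 when 1 sample was left out, being 1 without diabetic pool 4 (0.0126). In both diabetic groups together it was 1 with array weights (0.0239) and 0 to 1 with 1 sample left out, being 1 without NTD embryo 1 (0.0426). In both comparisons of NTD embryos it was 0 under every alternative run. For diabetic pools against control pools, limma called 159 of 7341 genes with normexp, 155 of 7341 without background correction and 127 of 5743 with the stricter filter.

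At an unadjusted p under 0.05, median scaling left 1 gene in each of the 4 comparisons, in place of 4 in diabetic pools, 5 in NTD embryos, 0 between these groups and 7 in both together. Leaving out control pools 3 and 4 left 2 in diabetic pools, 1 in NTD embryos and 1 in both together. Leaving out 1 sample gave 3 to 7 in diabetic pools (7 without diabetic pool 2), 3 to 7 in NTD embryos (3 without control pool 1, 2 or 3), 0 to 1 between these groups (1 without NTD embryo 3 or diabetic pool 4) and 3 to 9 in both together (3 without control pool 3). The median difference of the 16 genes from control pools was 0.085 in diabetic pools, 0.052 in NTD embryos and 0.041 in both together with median scaling, where the median of all genes was -0.058, -0.10 and -0.082. With 1 sample left out it was 0.077 to 0.15 in diabetic pools (lowest without pool 1), 0.12 to 0.19 in NTD embryos (lowest without embryo 2), 0.12 to 0.15 in both together and -0.032 to 0.021 between NTD embryos and diabetic pools. The cause of these shifts was not tested. Shares of all genes at an unadjusted p under 0.05 are not given for these alternatives.

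Of 1256 values of single genes under the alternatives, 63 changed sign, and none of these genes was called. Against control pools, median scaling gave -0.0081 for Nsdhl and -0.042 for Fads2 in diabetic pools, -0.061 for Ebp and -0.0084 for Acly in NTD embryos, and -0.017 for Mvk, -0.029 for Fasn, -0.00046 for Fads1 and -0.11 for Fads2 in both together; it gave -0.025 for Dhcr7 between NTD embryos and diabetic pools. The mean over probes gave -0.074 for Fdps and -0.051 for Fads1 in diabetic pools, -0.041 for Fdps and 0.025 for Fads2 in NTD embryos, and -0.057 for Fdps and -0.088 for Fads1 in both together. Array weights gave 0.028 for Mvk in diabetic pools, -0.0024 for Acly and 0.023 for Fads2 in NTD embryos, and -0.039 for Dhcr7 between these groups. The authors' value table gave 0.0061 for Fads1 in NTD embryos and -0.0035 for Fads2 in both together. Without control pools 3 and 4, Mvk was at 0.095 in diabetic pools and Fads2 at 0.057 in NTD embryos.

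With 1 sample left out, the range in diabetic pools was -0.12 to 0.14 for Fads2 and -0.090 to 0.074 for Mvk. In NTD embryos against control pools it was -0.019 to 0.12 for Ebp, -0.043 to 0.020 for Fads1, -0.11 to 0.11 for Fads2, -0.040 to 0.26 for Mvk, -0.021 to 0.065 for Acly and -0.12 to 0.024 for Fasn. Between NTD embryos and diabetic pools it was -0.077 to 0.091 for Dhcr7, -0.17 to 0.079 for Fads2, -0.040 to 0.068 for Fdps, -0.0058 to 0.079 for Cyp51, -0.033 to 0.27 for Mvk and -0.11 to 0.0087 for Insig1. In both diabetic groups together it was -0.045 to 0.024 for Ebp, -0.076 to 0.075 for Fads2 and -0.023 to 0.13 for Mvk.

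The sample titles give no link between samples of the same number beyond the number itself. With the replicate number as a block, limma called 0 of 16 genes in all 4 comparisons, with 4 of 16 at an unadjusted p under 0.05 in diabetic pools, 5 in NTD embryos, 0 between these groups and 7 in both together. The pairing check found correlations of same-numbered deviations from -0.27 to 0.076 between diabetic and control pools and from 0.0092 to 0.30 between NTD embryos and control pools. The BeadChip as a block was not run, since chips are not given in the sources used here.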
